A study of Homo sapiens with 12 samples.

Results

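Expression of 10 receptor tyrosine kinase genes other than EGFR was followed in SCC-15 cells given short hairpin RNAs against FMOD. FMOD is the gene of the extracellular matrix proteoglycan fibromodulin. The members were taken by name and are the 4 fibroblast growth factor receptors FGFR1, FGFR2, FGFR3 and FGFR4, the hepatocyte growth factor receptor MET, the GAS6 receptor AXL, the insulin-like growth factor receptor IGF1R and the insulin receptor INSR, the collagen receptor DDR1, and the stem cell factor receptor KIT. All 10 were found among the 61044 gene IDs of the count table, and 9 were among the 17532 genes with enough counts to be tested. KIT was not. FGFR1 passed that filter through its counts in the FMOD shRNA groups alone, so that a difference in this gene was built into its being tested, while the other 8 tested members would have passed on the NC libraries alone or on the shRNA libraries alone.

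SCC-15 is an established cell line from an oral squamous cell carcinoma. The control group (NC) carried a negative-control short hairpin RNA, and the other groups carried 1 of 3 hairpins against FMOD (shRNA1, shRNA2 and shRNA3). There were 3 libraries in each of the 4 groups, 12 in all, from cells harvested after 48 hours. Every group compared was thus one given a hairpin. The labels name no untreated cells, do not say whether the lines are clones or pools, and do not say whether the libraries of a group came from separate cultures, so p-values measure only the spread between these libraries, which may be technical.

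Receptor tyrosine kinases are single-pass membrane proteins with an extracellular ligand-binding region and an intracellular kinase. Ligand binding pairs the receptors, the kinases phosphorylate each other, and adaptor proteins that bind the phosphorylated tyrosines pass the signal to the RAS-MAPK and PI3K-AKT pathways. In squamous epithelium, FGFR2 is the main keratinocyte receptor for FGF7, MET answers hepatocyte growth factor made by stromal cells, DDR1 binds the collagen under the epithelium, and KIT is normally found on mast cells and melanocytes rather than on keratinocytes.

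Library totals ranged from 17286934 to 19567192 counts, and levels below are CPM, counts relative to the library total after scaling by TMM factors of 0.771 to 1.11. Across genes, the NC libraries correlated with the shRNA libraries at Pearson r of 0.829 to 0.855 on the log2(CPM + 1) scale. Within shRNA3, libraries 1 and 2 correlated at 0.995 with each other and at 0.919 and 0.916 with library 3, and they correlated at 0.904 to 0.929 with the 6 shRNA1 and shRNA2 libraries, where library 3 reached 0.979 to 0.988. Their TMM factors were 0.771 and 0.795, against 0.979 to 1.11 in the other 10 libraries. Libraries 1 and 2 of shRNA3 were thus unlike the other hairpin libraries, and a result on this group is also given without them where that changed a call or moved a called fold change by over 1.5 times. FMOD itself was at the limit of detection, with 2, 2 and 3 counts in the NC libraries and 0 in each of the 9 shRNA libraries, where 3 counts would be 0.145 to 0.222 CPM. These counts are too few to show whether, or how far, FMOD was knocked down. Of 15 squamous epithelial marker genes, 15 had counts in every group, with summed levels of 3678 to 3922 CPM in NC and 2489 to 5832 CPM in the shRNA libraries. The summed melanocyte and mast cell markers (8 genes) stood at 14.95 to 16.5 CPM in NC and 3.53 to 10.9 CPM in the shRNA libraries, with CPA3 at 0 in every group. Summed leukocyte and endothelial markers (8 genes) were 21.9 to 27.5 CPM in NC and 5.52 to 15.1 CPM in the shRNA libraries, with PTPRC at 0 in NC, and summed fibroblast markers (10 genes) were 56.8 to 59.9 and 15.6 to 86.6 CPM, with DCN, THY1 and POSTN at 0 in NC. FAP was at 0 in every shRNA group, and LUM with shRNA1 and shRNA3. COL1A2, COL3A1, DCN, POSTN and LYZ were at 0 with shRNA2, POSTN also with shRNA3, and CD3E with shRNA1 and shRNA2. TYR was at 0 in every shRNA group, MS4A2 in NC, shRNA1 and shRNA3, and TPSAB1 in NC and shRNA2. At an edgeR adjusted p under 0.05 with all 3 hairpins, 3 of 4 tested fibroblast markers were lower and 0 higher. Of 4 leukocyte and endothelial markers, 3 were lower and 1 higher (all genes: 19.7% lower, 16% higher). Among 15 squamous epithelial markers 3 were lower and 3 higher, and among 2 tested melanocyte and mast cell markers 1 was lower and 0 higher. COL1A2, LUM and VWF passed the count filter through NC alone, and PECAM1 and SOX2 through shRNA libraries alone. The part of these marker changes in the receptor results was not tested. In bulk RNA, fewer cells with a transcript and less transcript per cell cannot be told apart.

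The largest differences lay in the FGF receptors. FGFR1 and FGFR3 were higher, and FGFR2 and FGFR4 lower, in every FMOD shRNA library than in every NC library, so the receptor of this family with the highest level per length changed from FGFR4 in NC to FGFR3 in each shRNA group. MET and AXL were lower with all 3 hairpins. IGF1R, INSR and DDR1 had no direction shared by the 3 hairpins, and KIT had 1 to 5 counts in the NC libraries and 0 in the others. A member was called where the adjusted p was under 0.05 in edgeR's quasi-likelihood fit, after Benjamini-Hochberg adjustment over all 17532 genes. By that rule 8 of the 9 tested members were called with shRNA1 (3 higher, 5 lower), 6 with shRNA2 (2 higher, 4 lower) and 7 with shRNA3 (3 higher, 4 lower).

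Those counts have to be read against a transcriptome in which most genes were called: 57.4% of all tested genes with shRNA1 (26.8% higher, 30.6% lower), 53% with shRNA2 (24.6% higher, 28.4% lower) and 53.9% with shRNA3 (26.4% higher, 27.6% lower). Calls in the same direction with all 3 hairpins were made for 6 of 9 members, against 35.7% of all tested genes (16% higher and 19.7% lower). The same 6 members had no overlap between the 9 shRNA and the 3 NC libraries, against 44.8% of all tested genes. Both counts include FGFR1, whose difference was built into its being tested. The others were FGFR2, FGFR3, FGFR4, MET and AXL, which did not depend on 1 side to pass the count filter. The median log2 fold change of the 9 members was -0.61 with shRNA1, 0.06 with shRNA2 and -0.06 with shRNA3, where the medians of all genes were -0.02, -0.05 and -0.03. In absolute size the members' medians were 1.14, 1.56 and 1.14, and those of all genes 0.92, 0.85 and 0.87. The 3 comparisons share the NC libraries, so agreement between them is not independent evidence.

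**Figure D1:**
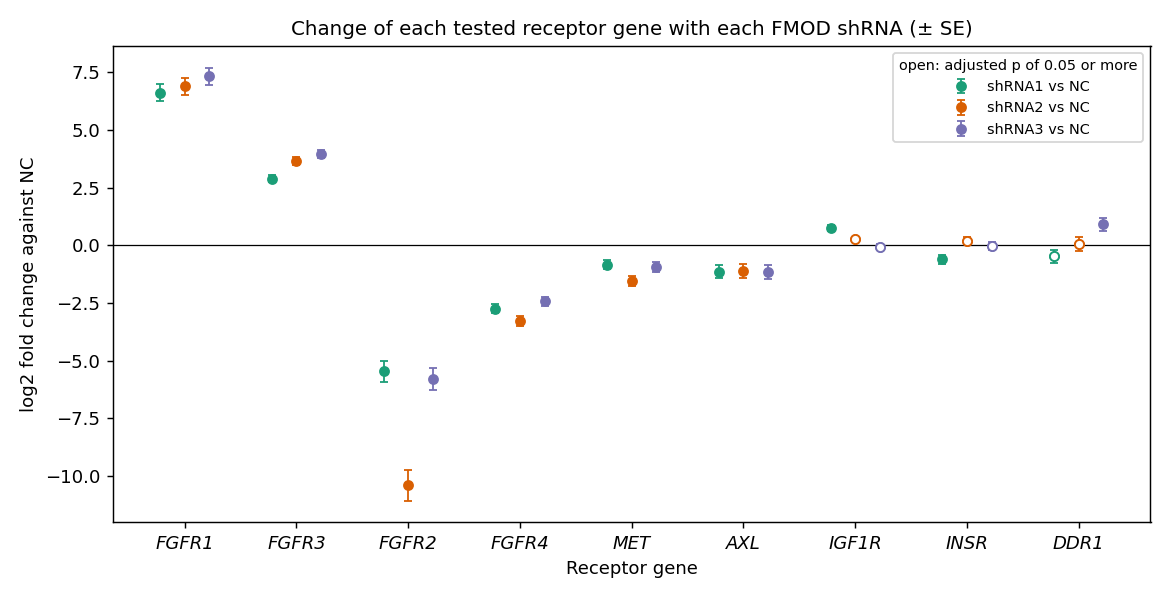
Log2 fold changes of the 9 tested receptors for each shRNA against NC, with bars of 1 standard error from the edgeR fit (3 libraries per group) and open points where the adjusted p was 0.05 or more. FGFR1 and FGFR3 lie above 0 and FGFR2, FGFR4, MET and AXL below 0 with all 3 hairpins, while DDR1 runs from -0.48 with shRNA1 to 0.91 with shRNA3.

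Because FGFR2, FGFR3 and FGFR4 moved in different directions, the 250 bases before their RefSeq transcription starts (GRCh38.p14, the most upstream start listed for each gene) are shown for comparison, 5′ to 3′ on the gene's strand. FGFR2 is at chr10:121598445-121598694 on the minus strand, FGFR3 at chr4:1793043-1793292 on the plus strand and FGFR4 at chr5:177086665-177086914 on the plus strand. Capitals mark each match to the GC box GGGCGG, searched on both strands, so that a match on the other strand reads CCGCCC.
FGFR2: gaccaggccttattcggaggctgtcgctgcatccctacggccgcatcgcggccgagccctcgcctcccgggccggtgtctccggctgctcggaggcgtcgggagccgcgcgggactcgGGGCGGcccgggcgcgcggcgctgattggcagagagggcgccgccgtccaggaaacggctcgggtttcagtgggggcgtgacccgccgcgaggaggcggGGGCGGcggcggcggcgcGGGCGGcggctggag
FGFR3: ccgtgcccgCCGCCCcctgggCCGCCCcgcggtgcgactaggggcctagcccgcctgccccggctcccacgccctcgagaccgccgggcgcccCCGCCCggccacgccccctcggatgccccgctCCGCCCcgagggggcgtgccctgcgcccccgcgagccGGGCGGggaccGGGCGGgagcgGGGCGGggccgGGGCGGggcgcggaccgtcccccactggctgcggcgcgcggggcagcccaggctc
FGFR4: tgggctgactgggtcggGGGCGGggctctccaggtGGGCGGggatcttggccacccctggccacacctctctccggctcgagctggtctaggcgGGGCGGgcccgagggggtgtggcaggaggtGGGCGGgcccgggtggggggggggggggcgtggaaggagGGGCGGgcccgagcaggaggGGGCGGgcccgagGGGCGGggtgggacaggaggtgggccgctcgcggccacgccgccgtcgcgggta
The windows held 3, 8 and 7 GC boxes for FGFR2, FGFR3 and FGFR4, a motif present in 42.6% of the 35116 RefSeq windows of the same length. Their GC content was 78.4%, 86.8% and 79.6%, where the median window had 58% and the 90th percentile was 75.2%. CpG dinucleotides numbered 42, 40 and 24, against a median of 11 and a 90th percentile of 31. No match to the AP-1 motif TGANTCA or to the TATA box TATAAA, which occur in 6.57% and 10.7% of all windows, was found in these letters. FGFR3, which rose, and FGFR2 and FGFR4, which fell, thus all had GC-rich windows with several GC boxes, and these counts are a description of the windows, not of factor binding.

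FGFR1 (ENSG00000077782, chromosome 8, 38400215 to 38468834, minus strand, GRCh38) encodes the FGF receptor most often linked to mesenchymal cells. It had 4, 3 and 10 counts in the NC libraries, or 0.202, 0.148 and 0.507 CPM. With shRNA1 it reached 28.7, 26.9 and 30.1 CPM, with shRNA2 33.9, 36.1 and 33.5 CPM, and with shRNA3 53.3, 54.7 and 32.2 CPM. Every shRNA library was thus far above every NC library. The log2 fold changes were 6.62 (SE 0.37, adjusted p = 2.27e-07), 6.89 (SE 0.37, adjusted p = 1.54e-07) and 7.32 (SE 0.37, adjusted p = 1.22e-07) by edgeR. FGFR1 was tested only because of its shRNA counts, so these p-values are no independent support for the difference. As ratios of summed counts against the 17 NC counts, the changes were 100-fold (exact 95% interval for counting error 62.5 to 173), 121-fold (75.7 to 209) and 157-fold (98.1 to 271). Library 3 held 10 of the 17 NC counts, and without it the log2 values were 7.30, 7.57 and 8.0. Exons of LETM2 lie on the strand opposite FGFR1, and no source used here says whether counting took strand into account. LETM2 was at 1.57 to 2.28 CPM in NC and at 11.01 to 19.0 CPM in the shRNA libraries, and how many reads of the overlap came from each gene cannot be told apart.

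FGFR3 (ENSG00000068078, chromosome 4, 1793293 to 1808872, plus strand), an FGF receptor of squamous epithelium and urothelium, rose from a level already well above the detection limit. Its NC libraries read 10.2, 11.4 and 10.5 CPM. The shRNA1 libraries read 79.8, 83.0 and 74.0 CPM, the shRNA2 libraries 134.7, 132.7 and 137.5 CPM, and the shRNA3 libraries 190.1, 181.7 and 128.7 CPM. The lowest shRNA library was more than 6 times the highest NC library, and within the hairpins shRNA1 was lowest. FGFR3 was 7.38-fold, 12.6-fold and 15.6-fold higher, or 2.88, 3.66 and 3.96 on the log2 scale (SE 0.16, 0.16 and 0.17, edgeR adjusted p = 2.10e-07, 4.90e-08 and 3.44e-08). Without libraries 1 and 2 of shRNA3, its log2 fold change was 3.62.

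FGFR2 (ENSG00000066468, chromosome 10, 121478334 to 121598458, minus strand) fell the most. It stood at 36.4, 34.6 and 33.1 CPM in NC and at 0.795, 0.919 and 0.619 CPM with shRNA1. In shRNA2 a single count was found in library 1 and 0 in libraries 2 and 3, and the shRNA3 libraries had 0.593, 1.09 and 0.248 CPM. All 9 shRNA libraries lay below all 3 NC libraries by a wide gap. FGFR2 was 44.2-fold lower with shRNA1 (log2 -5.47, SE 0.45, adjusted p = 2.49e-06) and 55.4-fold lower with shRNA3 (log2 -5.79, SE 0.46, adjusted p = 2.39e-06) by edgeR. With shRNA2, 1 count against 2079 in NC gave a 1837-fold lower count ratio, with a counting interval of 329 to 72609, and the fitted log2 value of -10.40 (SE 0.66, edgeR adjusted p = 4.59e-07) depends on the prior count. Without shRNA3 libraries 1 and 2, the shRNA3 value was -7.06, and without shRNA2 library 1 the fitted shRNA2 value was -12.32. Gene counts do not separate the epithelial (IIIb) from the mesenchymal (IIIc) splice form of FGFR1, FGFR2 or FGFR3, so the forms present in either condition are not known from these data.

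FGFR4 (ENSG00000160867, chromosome 5, 177086886 to 177098144, plus strand), a receptor for FGF19 together with the co-receptor beta-Klotho, also fell. NC libraries had 78.8, 76.0 and 72.8 CPM. With shRNA1 the level was 11.5, 11.03 and 11.3 CPM, with shRNA2 8.60, 7.997 and 6.64 CPM, and with shRNA3 16.1, 16.2 and 9.87 CPM. FGFR4 remained readily detected in every shRNA library, unlike FGFR2. It was 6.72-fold, 9.79-fold and 5.40-fold lower, or -2.75, -3.29 and -2.43 on the log2 scale (SE 0.20, 0.21 and 0.20, edgeR adjusted p = 1.26e-06, 4.46e-07 and 2.87e-06).

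Levels of different genes were compared per length, as CPM per kilobase of merged GENCODE exons. On this scale the summed FGFR level was 22.5 ± 0.809 (SD, n = 3) in NC, 20.8 ± 0.824 with shRNA1, 31.9 ± 0.274 with shRNA2 and 40.8 ± 8.55 with shRNA3. The family's total thus differed by less than 2-fold between groups while its make-up turned over. In NC, FGFR4 made up 69.8% of it, FGFR2 20.3%, FGFR3 9.81% and FGFR1 0.0930%. With shRNA1, FGFR3 made up 78.3%, FGFR4 11.3%, FGFR1 9.95% and FGFR2 0.492%. With shRNA2 the share of FGFR3 was 87.2%, and with shRNA3 it was 84.5%, while FGFR1 held 7.80% and 8.19% and FGFR4 5.02% and 7.08%. In each hairpin group FGFR3 came first and FGFR2 last, with FGFR4 and FGFR1 between them. The shares are a restatement of the levels above and carry no test of their own. They depend on the length used: with the longest protein-coding transcript (6.05 against 13.84 kilobases for FGFR1), FGFR3 made up 67.6%, 78.8% and 75.2% in the 3 hairpin groups and FGFR1 came second at 17.9%, 14.8% and 15.4%, while FGFR4 made up 70.02% in NC.

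**Figure D2:**
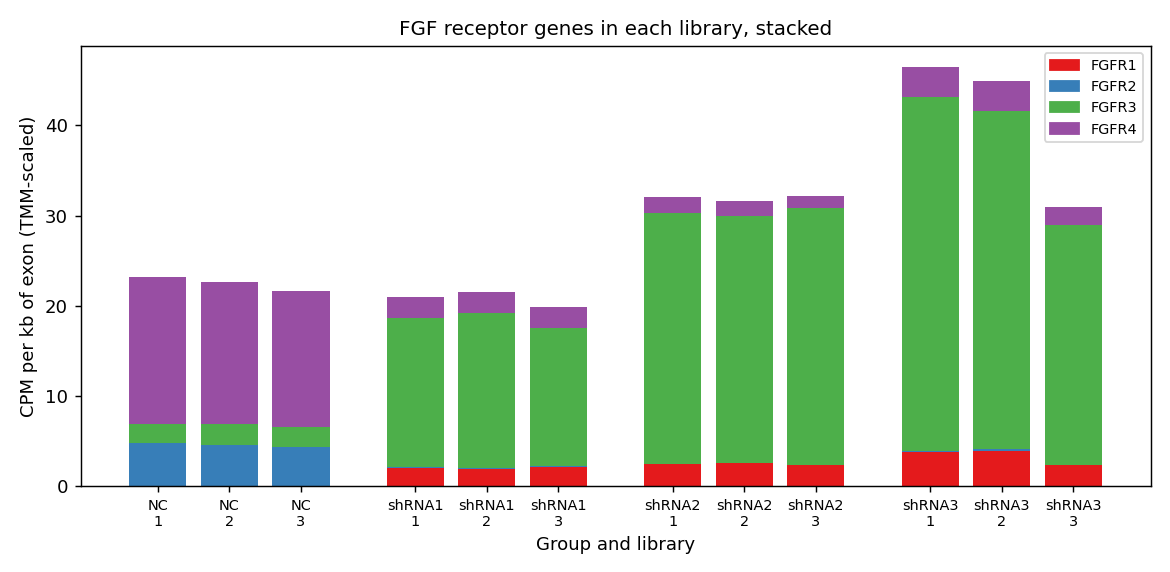
Stacked levels of the 4 FGF receptors (TMM-scaled CPM per kilobase of merged exons) in every library of NC and the 3 shRNA groups, where each bar is 1 library and its height the summed level. FGFR4 makes up most of the NC bars (69.8% on average) and FGFR3 most of the shRNA bars (78.3% to 87.2% on average).

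MET (ENSG00000105976, chromosome 7, 116672390 to 116798386, plus strand), the receptor for hepatocyte growth factor, was among the most abundant members and fell about 2- to 3-fold. NC libraries read 498.4, 446.6 and 458.9 CPM. The shRNA1 libraries read 222.8, 218.5 and 346.4 CPM, the shRNA2 libraries 155.2, 167.5 and 153.1 CPM, and the shRNA3 libraries 288.0, 273.8 and 178.2 CPM. All 9 were below the lowest NC library, with library 3 of shRNA1 and libraries 1 and 2 of shRNA3 the nearest to it. MET was 1.78-fold, 2.95-fold and 1.90-fold lower, with log2 fold changes of -0.83 (SE 0.21, adjusted p = 0.00581), -1.56 (SE 0.22, adjusted p = 0.000111) and -0.92 (SE 0.21, adjusted p = 0.00343) by edgeR. Where a log2 change of at least 1 was also required, MET remained called with shRNA2 and lost its call with shRNA1 and shRNA3.

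AXL (ENSG00000167601, chromosome 19, 41219203 to 41261766, plus strand), a TAM-family receptor whose ligand is GAS6, fell by about the same amount with each hairpin. It had 390.9, 343.8 and 362.4 CPM in NC. With shRNA1 the libraries had 145.1, 123.1 and 230.9 CPM, with shRNA2 173.3, 166.8 and 162.9 CPM, and with shRNA3 196.5, 210.2 and 90.4 CPM. The group means of 166.4, 167.7 and 165.7 CPM were close, but the libraries within shRNA1 and shRNA3 were spread over nearly 2-fold and more than 2-fold. AXL was 2.20-fold, 2.18-fold and 2.21-fold lower, with log2 fold changes of -1.14, -1.13 and -1.14 (SE 0.30 each) and edgeR adjusted p-values of 0.00654, 0.00742 and 0.00676. Without libraries 1 and 2 of shRNA3 the shRNA3 value was -1.99 (adjusted p = 0.000144). The differences between hairpins were near 0 with 95% intervals of -0.69 to 0.66 (shRNA1 minus shRNA2), -0.67 to 0.68 (shRNA1 minus shRNA3) and -0.66 to 0.69 (shRNA2 minus shRNA3) on the log2 scale, which leaves room for differences between hairpins in either direction.

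**Figure D3:**
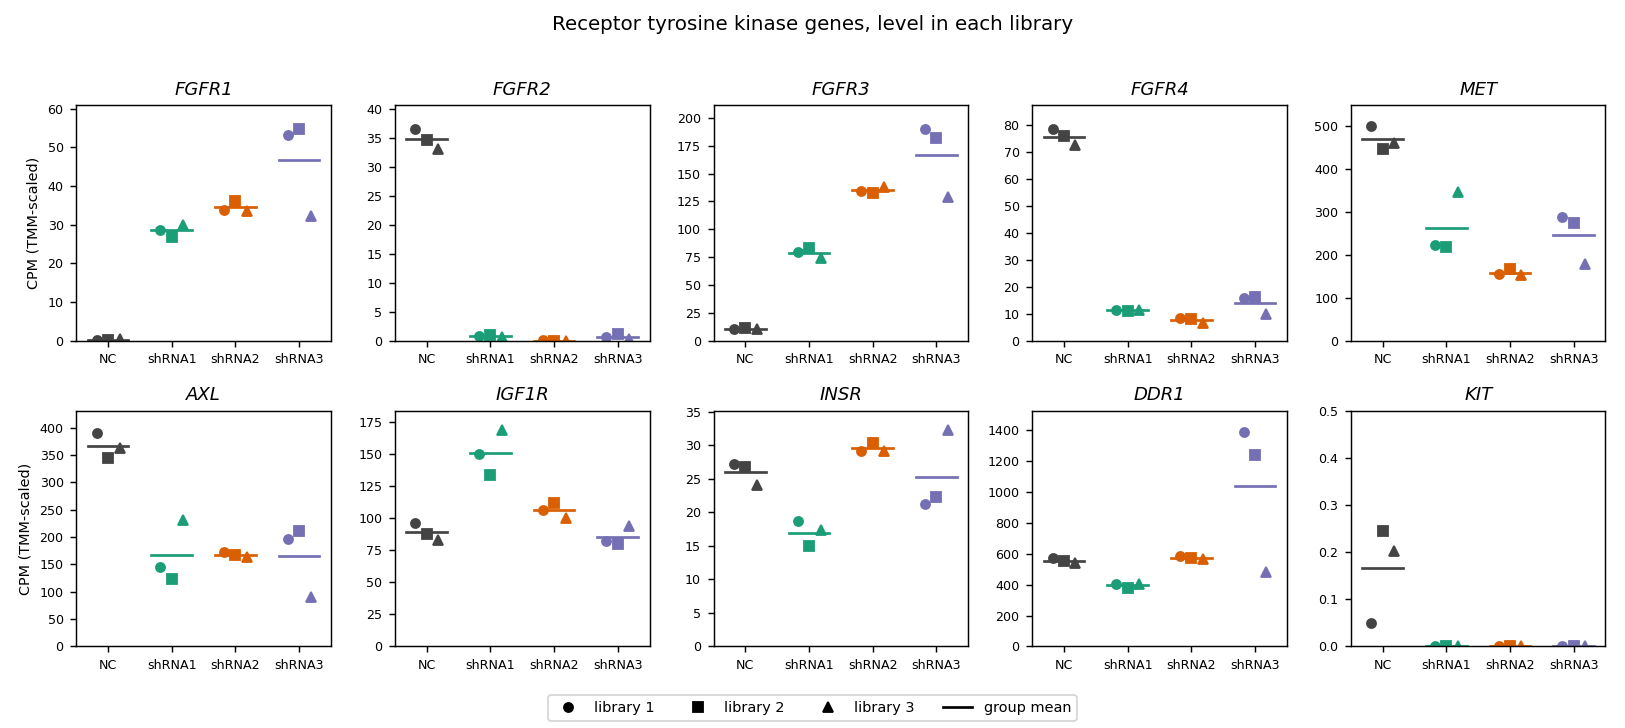
Level of each of the 10 receptors in every library (TMM-scaled CPM, linear axes from 0), with 3 points per group and a bar at the group mean. The shRNA points of FGFR1 and FGFR3 lie above, and those of FGFR2, FGFR4, MET and AXL below, all 3 NC points, and shRNA3 libraries 1 and 2 lie above library 3 for DDR1 (1385 and 1238 against 484.0 CPM).

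IGF1R (ENSG00000140443, chromosome 15, 98648539 to 98964530, plus strand) binds insulin-like growth factors, and INSR (ENSG00000171105, chromosome 19, 7112255 to 7294034, minus strand) binds insulin; the 2 proteins can also pair with each other. IGF1R stood at 96.2, 87.2 and 83.3 CPM in NC and at 149.6, 133.7 and 168.5 CPM with shRNA1. The shRNA2 libraries had 106.3, 111.5 and 99.9 CPM and the shRNA3 libraries 81.9, 79.5 and 94.0 CPM. IGF1R was thus above NC in all 3 libraries of shRNA1 and of shRNA2, and overlapped NC in shRNA3. The log2 fold change was 0.76 with shRNA1 (SE 0.13, edgeR adjusted p = 0.000406), 0.25 with shRNA2 (SE 0.13, adjusted p = 0.117) and -0.06 with shRNA3 (SE 0.13, adjusted p = 0.702). The mean of the 3 hairpins gave 0.32 (adjusted p = 0.0225), a call lost with no filter on low counts (adjusted p = 0.0625), with a filter at a mean of 50 counts (0.0657), without NC library 2 (0.0836) and without NC library 3 (0.117). The shRNA2 call appeared when only NC and shRNA2 were fitted (adjusted p = 0.00339), without shRNA3 library 3 (0.0261) and without shRNA3 libraries 1 and 2 (0.0303).

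INSR moved the other way with shRNA1. It had 27.1, 26.7 and 24.1 CPM in NC, and 18.6, 15.002 and 17.3 CPM with shRNA1. In shRNA2 it had 29.2, 30.4 and 29.1 CPM, and in shRNA3 21.3, 22.4 and 32.3 CPM. The shRNA1 libraries lay below NC, the shRNA2 libraries above it, and the shRNA3 libraries on both sides. The log2 fold changes were -0.61 (SE 0.18, adjusted p = 0.0126), 0.19 (SE 0.18, adjusted p = 0.407) and -0.04 (SE 0.18, adjusted p = 0.875) by edgeR. The shRNA1 call was lost with no filter on low counts (adjusted p = 0.0524) and without shRNA1 library 2 (0.0622). Per length, the ratio of IGF1R to INSR was 2.57 in NC, 6.66 with shRNA1, 2.69 with shRNA2 and 2.58 with shRNA3, so the higher ratio was seen with shRNA1.

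DDR1 (ENSG00000204580, chromosome 6, 30876421 to 30900156, plus strand), the collagen receptor of epithelial cells, was abundant in every group. NC libraries read 570.0, 549.8 and 538.2 CPM. The shRNA1 libraries read 404.9, 376.8 and 403.1 CPM, the shRNA2 libraries 587.1, 569.5 and 567.9 CPM, and the shRNA3 libraries 1385, 1238 and 484.0 CPM. All shRNA1 libraries were below NC, the shRNA2 libraries overlapped it, and shRNA3 held values on both sides. The edgeR log2 fold changes were -0.48 (SE 0.29, adjusted p = 0.173), 0.06 (SE 0.29, adjusted p = 0.884) and 0.91 (SE 0.29, adjusted p = 0.0206). The shRNA3 call rested on libraries 1 and 2: without them the value was -0.16 (adjusted p = 0.193), and the mean over the hairpins changed from 0.16 (adjusted p = 0.587) to -0.19 (adjusted p = 0.0173). It was also lost when any of the NC libraries 1, 2 or 3 was left out (adjusted p = 0.0515, 0.0589 and 0.0617), without shRNA3 library 1 (0.0688) or library 2 (0.0540), and when only NC and shRNA3 were fitted (0.0950). The lower level with shRNA1 was called without shRNA3 library 3 (adjusted p = 3.77e-05), without shRNA3 libraries 1 and 2 (6.23e-05) and when only NC and shRNA1 were fitted (0.000888). In each of these fits the spread between shRNA3 libraries was smaller or absent.

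The shRNA3 libraries differed for other members too. The mean of libraries 1 and 2 over library 3 was 2.71 for DDR1, 2.25 for AXL, 1.68 for FGFR1, 1.64 for FGFR4, 1.58 for MET and 1.44 for FGFR3, and it was 0.858 for IGF1R and 0.676 for INSR. These ratios include the low TMM factors of libraries 1 and 2: on unscaled totals they were 1.99 for DDR1, 1.66 for AXL, 1.24 for FGFR1, 1.21 for FGFR4, 1.16 for MET and 1.063 for FGFR3, and 0.632 for IGF1R and 0.498 for INSR. In shRNA1, library 3 over the mean of libraries 1 and 2 was 1.72 for AXL and 1.57 for MET, while it was 1.03 for DDR1. With library 3 alone standing for shRNA3, the log2 fold changes against NC were 6.82 for FGFR1, 3.62 for FGFR3, -2.91 for FGFR4 and -1.36 for MET, all in the direction of the whole group and all called by edgeR, where that lone library is assumed to vary like the libraries of the other groups.

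KIT (ENSG00000157404, chromosome 4, 54657918 to 54740715, plus strand), the receptor for stem cell factor, was at the edge of detection. NC libraries had 1, 5 and 4 counts, or 0.0552, 0.273 and 0.224 CPM of the unscaled totals, with exact 95% intervals of 0.00140 to 0.308, 0.0887 to 0.637 and 0.0610 to 0.574. All 9 shRNA libraries had 0 counts, with exact 95% upper limits of 0.189 to 0.213 CPM of the unscaled totals, which overlap the NC intervals (3 counts would be 0.153 to 0.174 CPM). Those intervals are of single libraries. Summed over libraries, 10 counts in NC stood against 0 in each hairpin group. The 95% upper limits for the ratio to NC were 0.444, 0.505 and 0.564 with shRNA1, shRNA2 and shRNA3, for counting error alone. With NC at 1 to 5 counts per library, no fold change is given. Fitted without the filter, KIT gave edgeR adjusted p-values of 0.0589, 0.0744 and 0.0815 for the 3 hairpins and 0.00672 for their mean.

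Ordered by level per length in NC, AXL came first with 71.0 ± 4.605 CPM per kilobase (SD, n = 3), then MET with 66.5 ± 3.84 and DDR1 with 60.6 ± 1.76. AXL and MET overlapped between libraries and did not differ beyond their spread. FGFR4 followed at 15.7 ± 0.628, then IGF1R at 6.38 ± 0.477, FGFR2 at 4.58 ± 0.220, INSR at 2.49 ± 0.159 and FGFR3 at 2.21 ± 0.124, the last pair overlapping. KIT at 0.0299 and FGFR1 at 0.0206 closed the order and overlapped as well. In each shRNA group DDR1 came first, with 43.3 ± 1.72, 63.0 ± 1.17 and 113.5 ± 53.0 CPM per kilobase. With shRNA1 it was followed by MET (37.3 ± 10.3) and AXL (32.3 ± 11.05), whose libraries overlapped with DDR1 and with each other, and then by FGFR3 (16.3 ± 0.939) and IGF1R (10.8 ± 1.25). With shRNA2 the order was DDR1, AXL (32.5 ± 1.02), FGFR3 (27.8 ± 0.500), MET (22.5 ± 1.10) and IGF1R (7.60 ± 0.416). With shRNA3, MET (35.0 ± 8.48), FGFR3 (34.4 ± 6.87) and AXL (32.2 ± 12.7) overlapped. FGFR3 thus moved from the eighth place among the members in NC to the third or the fourth. The order depends on the length used: with the longest protein-coding transcript in place of merged exons (4.15 against 9.12 kilobases for DDR1), DDR1 was first in NC too, at 133.2, ahead of AXL at 77.2 and MET at 70.5 CPM per kilobase, and FGFR3 was second with shRNA3 at 37.6.

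Summed per length over the 10 receptors, the level was 229.4 ± 10.9 CPM per kilobase in NC, 146.1 ± 22.7 with shRNA1, 160.4 ± 2.44 with shRNA2 and 230.0 ± 81.3 with shRNA3. DDR1, MET and AXL together made up 86.3%, 76.9%, 73.6% and 77.1% of it. The sum was thus lower than NC in the libraries of shRNA1 and shRNA2 and widely spread in shRNA3, where 2 libraries with high DDR1 set the mean.

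The hairpins were also compared with each other, in 27 tests of 9 members over 3 pairs, of which 11 were called by edgeR. Between shRNA1 and shRNA2, 5 of 9 members were called (12.3% of all genes), between shRNA1 and shRNA3 4 of 9 (30%), and between shRNA2 and shRNA3 2 of 9 (8.34%). FGFR3 was lower with shRNA1 than with shRNA2 (log2 -0.77, SE 0.15, adjusted p = 0.00873) and shRNA3 (log2 -1.08, SE 0.15, adjusted p = 0.00254, and -0.72 with adjusted p = 0.00321 without shRNA3 libraries 1 and 2). The second of these calls was lost when only the compared groups were fitted (adjusted p = 0.117). IGF1R was higher with shRNA1 than with shRNA2 (log2 0.51, SE 0.13, adjusted p = 0.0266), a call lost with a replicate block (0.0532), with no filter (0.112) and when any 1 of the 6 shRNA1 and shRNA2 libraries was left out (0.0517 to 0.124). It was also higher with shRNA1 than with shRNA3 (log2 0.82, SE 0.13, adjusted p = 0.00350), a call lost when only those groups were fitted (0.117). INSR was lower with shRNA1 than with shRNA2 (log2 -0.80, SE 0.18, adjusted p = 0.0175), a call lost when shRNA1 library 2 or any 1 shRNA2 library was left out (0.0602 to 0.0884). Against shRNA3 its value was -0.58 (SE 0.18, adjusted p = 0.0350), lost with a replicate block (0.0568), with no filter (0.107), with the compared groups alone (0.200) and in 8 of the fits that left a library out (0.0546 to 0.126). FGFR1 was not called between hairpins: shRNA1 minus shRNA3 was -0.71 with a 95% interval of -1.31 to -0.11 and an adjusted p of 0.0582 by edgeR. That difference became called with a filter at a mean of 50 counts (0.0463), without NC library 3 (0.0355) and without shRNA3 library 3 (4.96e-05). By the DESeq2 Wald test it was called as well (0.00869), and it was -0.19 without shRNA3 libraries 1 and 2. For FGFR1, shRNA2 minus shRNA3 was called without shRNA3 library 3 (log2 -0.63, edgeR adjusted p = 0.00133). The counts for these pairs changed more with the processing than the counts against NC, as the closing section gives.

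Genes that act with these receptors were taken as lists of ligands, co-receptors and binding proteins, adaptors, negative regulators, shedding proteases and other receptors. In each list the share called in 1 direction with all 3 hairpins is set beside that of all tested genes, 35.7% (16% higher, 19.7% lower). Some listed genes passed the count filter through NC alone: FGF5, FGF7, FGF17, FGFBP3, IGFBP4, IGFBP5, TMPRSS13, GRB14, NTRK2, MERTK and RET. Others passed it through the shRNA libraries alone: IGF2, FGF22, DDR2 and LTK. For both sets a difference was thus built into their being tested, into these shares and into the list medians given below. Of 25 listed ligands of the members, 11 had enough counts to be tested and 7 were at 0 in all libraries. With all 3 hairpins 2 ligands were called higher (IGF2 and FGF2) and 5 lower, 63.6% of those tested, of which FGF2, GAS6 and PROS1 passed the filter in NC and shRNA libraries alike. The ligands' median log2 fold change for the mean of the hairpins was -2.01, against -0.03 for all genes, of which 60% were called in that comparison. The ligand median includes FGF5, FGF7 and FGF17, tested through NC alone, and IGF2 and FGF22, tested through the shRNA libraries alone. It is therefore no evidence of a shift of the ligands as a group.

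FGF2, a ligand that binds mainly the mesenchymal splice forms of the FGF receptors, rose. It had 6.25, 6.49 and 6.08 CPM in NC, 71.5, 79.8 and 83.6 CPM with shRNA1, 30.9, 28.3 and 28.8 CPM with shRNA2 and 38.5, 34.7 and 46.9 CPM with shRNA3. Groups did not overlap with NC, and shRNA1 was highest. The changes were 12.46-fold, 4.67-fold and 6.37-fold (log2 3.64, 2.22 and 2.67, SE 0.16, 0.15 and 0.15, edgeR adjusted p = 4.75e-08, 6.67e-07 and 2.20e-07). Exons of NUDT6 lie opposite FGF2. NUDT6 was at 3.33 to 5.17 CPM in NC and 0.510 to 4.91 CPM in the shRNA libraries. How many reads of the overlap came from FGF2 and from NUDT6 cannot be told apart.

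FGF7, the stromal ligand of the epithelial FGFR2 form, had 2.88, 2.16 and 3.85 CPM in NC and 0.0553 to 0.655 CPM in the shRNA libraries, with log2 fold changes of -3.74, -3.79 and -2.73 (SE 0.57, 0.58 and 0.54, edgeR adjusted p = 0.000196, 0.000219 and 0.00125), and -4.61 for shRNA2 without its library 2. FGF5, another FGF ligand, had 6.05, 3.30 and 4.92 CPM in NC and 0 to 0.146 CPM in the shRNA libraries, and FGF17 had 1.41, 0.738 and 0.963 CPM in NC and 0 to 0.169 CPM. Both were called lower with all 3 hairpins, on 2 or 3 counts per shRNA group. FGF1 had 2.52, 2.26 and 1.88 CPM in NC and was called lower with shRNA2 (log2 -2.85, SE 0.70, adjusted p = 0.00506) and shRNA3 (log2 -2.77, SE 0.70, adjusted p = 0.00610), where the shRNA3 value was -3.55 without library 3 and -1.98 without libraries 1 and 2. With shRNA1 FGF1 gave -1.19 (SE 0.63, adjusted p = 0.125), which was called when only NC and shRNA1 were fitted (0.0238), without shRNA3 library 2 (0.0393), without shRNA3 library 3 (0.0405) and without shRNA3 libraries 1 and 2 (0.0188). FGF19, the ligand of FGFR4, had 1.61, 0.689 and 0.963 CPM in NC and was called lower with shRNA1 (log2 -2.54, SE 0.59, adjusted p = 0.00326), with -0.98 and -0.58 for shRNA2 and shRNA3 (adjusted p = 0.141 and 0.371 by edgeR); the shRNA3 value was -1.24 (adjusted p = 0.186) without libraries 1 and 2, and shRNA2 was called when only NC and shRNA2 were fitted (0.0475).

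GAS6, the ligand of AXL, and PROS1, which acts mainly on other receptors of the TAM family, fell as AXL did. GAS6 had 486.4, 537.1 and 504.5 CPM in NC, 69.2, 67.2 and 83.1 CPM with shRNA1, 65.0, 66.5 and 67.8 CPM with shRNA2 and 131.5, 135.8 and 70.3 CPM with shRNA3. Every shRNA library lay below every NC library. GAS6 was 6.96-fold, 7.67-fold and 4.53-fold lower (log2 -2.80, -2.94 and -2.18, SE 0.22, 0.23 and 0.22, edgeR adjusted p = 2.14e-06, 1.66e-06 and 1.14e-05), and -2.83 with shRNA3 library 3 alone. PROS1 had 51.1, 43.1 and 47.3 CPM in NC and 7.90 to 19.9 CPM in the shRNA libraries, with log2 fold changes of -2.36, -2.05 and -1.62 (SE 0.22 each, edgeR adjusted p = 6.27e-06, 1.58e-05 and 8.21e-05). AXL and both ligands were thus lower with all 3 hairpins.

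IGF2, a ligand of IGF1R and INSR, had 2, 0 and 6 counts in the NC libraries. It reached 5.42, 5.71 and 7.58 CPM with shRNA1, 8.66, 8.56 and 7.58 CPM with shRNA2 and 19.3, 23.0 and 8.09 CPM with shRNA3. It was called higher with all 3 hairpins (edgeR adjusted p = 3.50e-05, 2.23e-05 and 8.29e-06), and with so few NC counts the size of the change is not well set: without NC library 3 the fitted log2 values moved from 5.47, 5.88 and 6.90 to 6.78, 7.19 and 8.20, and the shRNA3 value was 5.88 without shRNA3 libraries 1 and 2. KITLG, the ligand of KIT, stood at 29.004, 24.4 and 28.6 CPM in NC, at 62.7, 64.2 and 74.1 CPM with shRNA1, at 32.9, 42.1 and 36.4 CPM with shRNA2 and at 13.78, 14.7 and 43.7 CPM with shRNA3. It was called higher with shRNA1 (log2 1.29, SE 0.36, adjusted p = 0.00975), while shRNA2 gave 0.44 (adjusted p = 0.322) and shRNA3 -0.18 (adjusted p = 0.699) by edgeR. Library 3 of shRNA3 lay above NC and libraries 1 and 2 below it, and the shRNA3 value was 0.71 (adjusted p = 0.00253) without libraries 1 and 2 and -0.94 (adjusted p = 3.20e-05) without library 3. HGF, the ligand of MET, had 0 counts in NC and at most 0.282 CPM in an shRNA library.

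**Figure D4:**
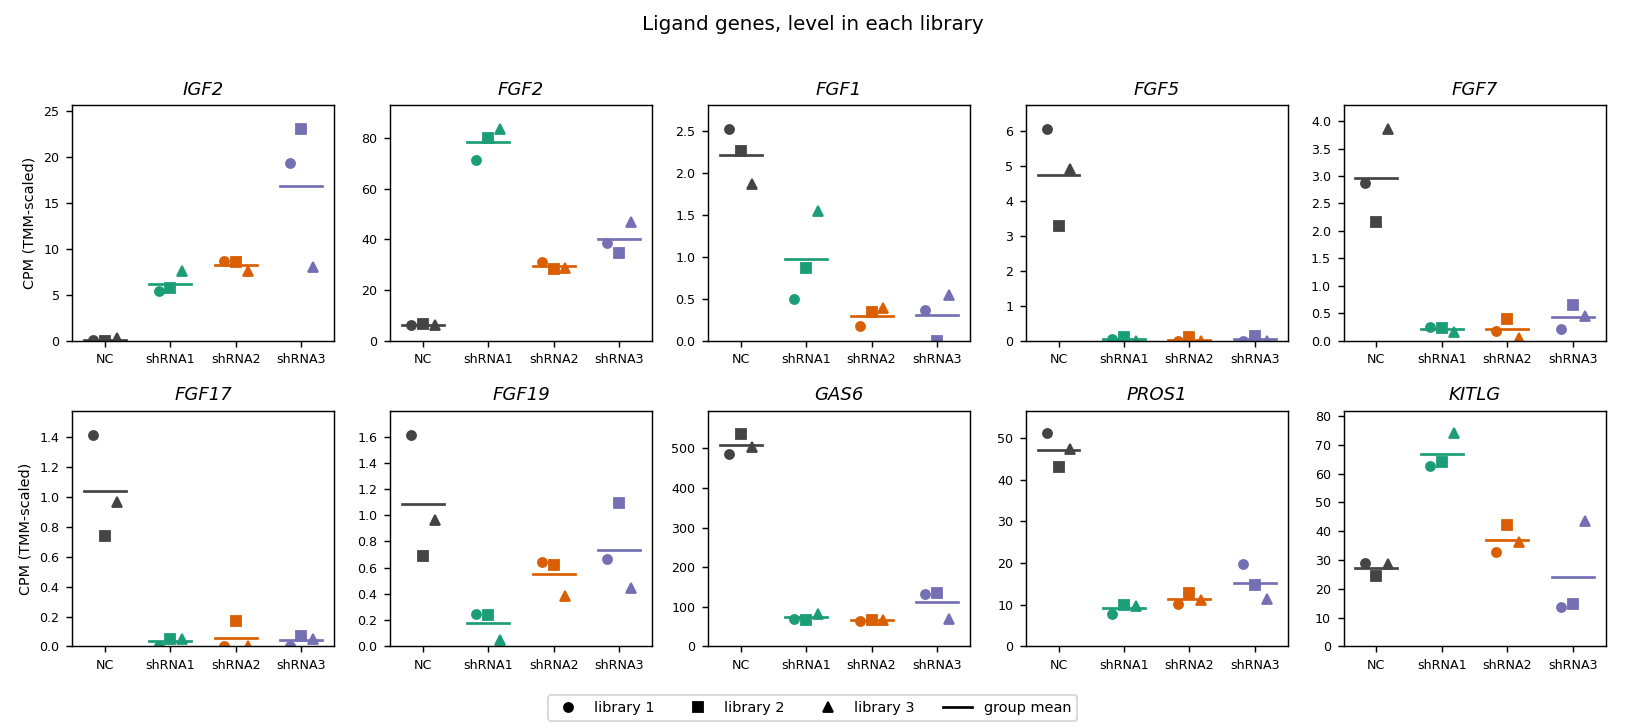
Levels of the listed ligands that reached 1 CPM in any group (TMM-scaled CPM in every library, 3 per group). FGF2 and IGF2 lie above NC in all 9 shRNA libraries, and GAS6, PROS1, FGF5, FGF7 and FGF17 lie below it.

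Of 21 co-receptors and binding proteins 15 were tested, and with all 3 hairpins 5 were called higher and 7 lower, 33.3% and 46.7% of those tested (median log2 -0.78 for the mean of the hairpins). IGFBP6, a binding protein with a preference for IGF2, rose from 12.1 ± 0.728 CPM (SD, n = 3) in NC to 189.5 ± 41.8, 217.1 ± 10.3 and 360.7 ± 112 CPM (log2 3.97, 4.16 and 4.90). FGFBP1, a secreted carrier of FGFs, rose from 3.02 ± 0.248 to 26.2 ± 10.8, 24.9 ± 3.88 and 23.9 ± 10.3 CPM (log2 3.11, 3.04 and 2.98). SDC1, a heparan sulphate proteoglycan of epithelial cells, rose from 127.9 ± 6.08 to 381.7 ± 50.6, 335.2 ± 14.99 and 513.3 ± 39.2 CPM (log2 1.58, 1.39 and 2.004). These 3 genes had edgeR adjusted p-values of at most 5.43e-05. Among the genes that fell, IGFBP3, the main carrier of IGFs in serum, went from 369.1 ± 37.6 to 41.5 ± 4.27, 69.7 ± 13.1 and 59.1 ± 39.9 CPM (log2 -3.15, -2.40 and -2.64, edgeR adjusted p = 3.88e-05, 0.000231 and 0.000131). IGFBP4 had 17.4, 14.9 and 11.96 CPM in NC, at most 0.451 CPM with shRNA1 or shRNA2 and 0 in each shRNA3 library. SDC4 fell from 1126 ± 57.5 to 434.0 ± 107, 226.7 ± 7.27 and 536.1 ± 269 CPM (log2 -1.38, -2.31 and -1.07, edgeR adjusted p = 0.00531, 0.000235 and 0.0202), and its shRNA3 call was lost without NC library 2 (0.0525) and when only NC and shRNA3 were fitted (0.115). The IGF binding proteins therefore did not move as a group, with IGFBP6 higher and IGFBP3 and IGFBP4 lower. With shRNA3 library 3 alone, the shRNA3 values were 2.16 for FGFBP1, -1.78 for IGFBP3 (-3.36 without library 3) and -2.29 for SDC4.

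Hepatocyte growth factor is cleaved to its active form by serine proteases that SPINT1 and SPINT2 inhibit. Of 6 listed genes of this step 4 were tested, and 2 were called lower and 0 higher with all 3 hairpins, 50% of those tested (median log2 -1.64). TMPRSS13, 1 of these 4, was tested through NC alone, so a difference was built into this share and median. SPINT1 had 332.9, 302.2 and 307.5 CPM in NC and 27.1 to 101.5 CPM in the shRNA libraries, with log2 fold changes of -3.29, -2.95 and -1.94 (SE 0.24, 0.24 and 0.23, edgeR adjusted p = 1.31e-06, 2.49e-06 and 3.81e-05), and -2.64 with shRNA3 library 3 alone.

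Of 29 adaptors and proximal effectors 27 were tested, and 1 was called higher and 6 lower with all 3 hairpins, 25.9% in all and below the 35.7% of all genes (median log2 -0.32). GRB10, an adaptor that binds INSR and IGF1R and dampens their signal, rose from 25.7 ± 2.38 CPM to 76.2 ± 0.0566, 60.6 ± 3.25 and 84.2 ± 11.98 CPM (log2 1.57, 1.24 and 1.71, edgeR adjusted p = 3.66e-06, 1.94e-05 and 2.32e-06). GAB2, a docking protein, fell from 35.9 ± 4.23 to 3.02 ± 0.524, 3.87 ± 0.0444 and 6.26 ± 0.743 CPM (log2 -3.56, -3.21 and -2.52, edgeR adjusted p = 2.88e-07, 4.64e-07 and 2.15e-06). NCK2, an adaptor to the cytoskeleton, fell by log2 1.26, 0.94 and 1.46, and PLCG2, a phospholipase, by log2 1.28, 0.94 and 1.08, with edgeR adjusted p-values of at most 0.00920.

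Of 24 negative regulators, all tested, 5 were called higher and 7 lower with all 3 hairpins (median log2 -0.11). These were 20.8% and 29.2%, against 16% and 19.7% of all genes, or 50% in all against 35.7%. SPRY1 and SPRY2, Sprouty proteins that restrain FGF signalling and are themselves induced by it, rose: SPRY1 from 3.27 ± 0.306 CPM to 10.2 ± 1.27, 13.3 ± 0.984 and 21.0 ± 6.13 CPM (log2 1.65, 2.02 and 2.68), and SPRY2 from 6.68 ± 0.430 to 31.9 ± 2.89, 16.1 ± 1.11 and 20.8 ± 0.392 CPM (log2 2.25, 1.27 and 1.63). SOCS2, a cytokine-signalling suppressor, rose by log2 1.94, 1.80 and 1.62. The edgeR adjusted p-values of these 3 genes were at most 0.000192. CBLC, an epithelial ubiquitin ligase of the CBL family that marks receptors for degradation, fell from 74.3 ± 3.03 to 6.71 ± 2.49, 8.80 ± 1.058 and 10.0 ± 5.27 CPM (log2 -3.47, -3.08 and -2.90, and -4.19 with shRNA3 library 3 alone). The phosphatases PTPN2 (log2 -1.04, -1.53 and -1.51) and INPPL1 (log2 -0.92, -0.91 and -1.10) were also lower, with edgeR adjusted p-values for CBLC, PTPN2 and INPPL1 of at most 0.000504.

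Of the 11 proteases and inhibitors that govern shedding of receptors from the membrane, all tested, 2 were called higher and 1 lower with all 3 hairpins, 27.3% in all and below the 35.7% of all genes (median log2 -0.41). TIMP1 rose from 55.3 ± 2.96 CPM to 216.5 ± 37.9, 186.3 ± 13.4 and 330.5 ± 111 CPM, and TIMP3 from 47.0 ± 6.42 to 134.9 ± 17.4, 246.5 ± 2.47 and 287.0 ± 53.8 CPM. Both encode inhibitors of metalloproteinases. The log2 fold changes were 1.97, 1.75 and 2.58 for TIMP1 (1.91 with shRNA3 library 3 alone) and 1.52, 2.39 and 2.61 for TIMP3. MMP14, a membrane-anchored metalloproteinase, fell from 480.4, 391.2 and 386.9 CPM in NC to 0.409 to 3.06 CPM in the shRNA libraries. Its log2 fold changes were -9.48, -9.07 and -7.70 (SE 0.59, 0.58 and 0.54, edgeR adjusted p = 4.35e-07, 4.74e-07 and 9.17e-07), and -9.68 with shRNA3 library 3 alone.

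Of 30 other receptor tyrosine kinases 17 were tested, and 3 were called higher and 7 lower with all 3 hairpins, 10 of 17 in all, against 35.7% of all genes and 6 of 9 members (median log2 -0.46). MERTK, NTRK2 and RET were tested through NC alone, and DDR2 and LTK through the shRNA libraries alone. A difference was thus built into this share and median. MST1R, the receptor most closely related to MET, rose from 17.4, 22.1 and 18.4 CPM in NC to 51.2, 57.2 and 101.7 CPM with shRNA1, 147.9, 135.7 and 142.3 CPM with shRNA2 and 137.9, 129.3 and 113.7 CPM with shRNA3 (log2 1.86, 2.88 and 2.72, SE 0.23, 0.24 and 0.24, edgeR adjusted p = 5.05e-05, 2.96e-06 and 4.64e-06). MET and MST1R thus moved in opposite directions. PTK7, a receptor without kinase activity, fell from 228.0, 202.9 and 187.4 CPM to 0.670 to 2.55 CPM (log2 -7.86, -7.35 and -6.66, SE 0.36, 0.35 and 0.34, edgeR adjusted p = 6.99e-08, 8.11e-08 and 1.13e-07), and -7.28 with shRNA3 library 3 alone. NTRK2, a neurotrophin receptor, fell from 20.1, 17.6 and 14.0 CPM to at most 0.451 CPM, and PDGFRB, a receptor of fibroblasts and pericytes that is also on the fibroblast marker list, from 11.7, 9.35 and 11.05 CPM to at most 1.29 CPM. Among the 40 listed receptors ordered by level per length, the members AXL, MET and DDR1 came first in NC, ahead of PTK7 at 22.8 and FGFR4 at 15.7 CPM per kilobase. The 40 do not include EGFR, the other ERBB receptors or the Eph receptors, so places among all receptor tyrosine kinases were not examined. In the shRNA groups PTK7 was no longer among the 8 highest, and MST1R took the fifth, the fourth and the fifth place at 13.3, 27.0 and 24.2 CPM per kilobase.

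For the 3 members with the highest level per length, the genes with the most similar profile over the 12 libraries were found by the root mean square distance of centred log2(CPM + 1) values. Nearest to DDR1 were ATP2B4 (0.0946) and CHTF18 (0.0987), nearest to AXL ZDHHC2 (0.145) and RNF43 (0.167), and nearest to MET CALU (0.153) and STAT3 (0.181). These distances are averages over all 12 libraries and say nothing of shared function.

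Several of these genes have annotated exons that overlap another gene, so reads from the overlap could not be assigned with certainty. On the opposite strand this holds, besides FGFR1 and FGF2, for AXL, GAS6, IGF2, INPPL1, KITLG, MST1R, NCK2, SOCS2 and SPINT1, and on the same strand for DDR1, FGF5, IGF2 and PLCG2. Opposite AXL, AC011510.1 had 1 count in 1 library and 0 in the others, and opposite GAS6, GAS6-AS1 reached at most 5.70 CPM.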

How the data were processed

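RNA from SCC-15 cells (NC and 3 FMOD hairpins, 3 libraries each) was sequenced after libraries were made with the NEBNext Ultra kit, per the labels. The authors deposited unscaled expected counts (estimated counts) for each gene, and the submitters' processing notes name HISAT2, HTSeq 0.11.2 and GRCh38 for making them. Of the deposited values 13.8% are not whole, and the annotation and use of strand are not given in the sources used here. Counts were rounded. Each of the 12 columns matched 1 sample title (0 unmatched).

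Genes were kept by filterByExpr (minimum count 10, minimum total 15), scaled by TMM and tested in edgeR 4.0.16 (R 4.3.3, limma 3.58.1) by a robust, two-sided quasi-likelihood F test in 1 model of the 4 groups over 12 libraries (8 residual degrees of freedom, common biological coefficient of variation 0.289), with Benjamini-Hochberg adjustment over 17532 genes and a threshold of 0.05. Standard errors are the log2 fold change over the square root of F. On data simulated for shRNA1 against NC, 75% of 196 genes changed 4-fold were recovered among 16901, with 12 false calls. Few genes were changed in that simulation, up and down alike, where 57.4% of all genes were called with shRNA1 in the real data. Its recovery and false calls therefore do not carry over to these comparisons. Exact 95% intervals, counting intervals and floors of 3 counts describe counting error alone, because no molecular identifiers mark which reads come from separate molecules. The 95% intervals of log2 differences between hairpins came from the edgeR fit instead. They are the log2 fold change plus or minus its standard error times a t quantile at 8 degrees of freedom, and carry the spread between libraries.

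Members and gene lists were chosen with earlier results of these data known. Named were all members, per list up to 3 genes in each direction called with all 3 hairpins at a mean of at least 10 CPM in some group, with the largest smallest change, and each ligand reaching 1 CPM, and for the 3 most abundant members the 2 nearest profiles (pseudocount 1); HGF, LETM2 and NUDT6 were named after their values were seen. Positions and exon lengths came from GENCODE release 29, promoters from RefSeq (GRCh38.p14), where 9 of 10 members matched. Alternatives were a replicate block, DESeq2 size factors and its Wald test (DESeq2 1.42.0), other count filters, thinning to the smallest total, the compared groups alone, stricter thresholds, libraries left out and, added after the data were seen, transcript length.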

Additional observations from a re-analysis of the deposited data

Results flagged for a closer look

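The effect of a hairpin on a member differed between hairpins in 11 of 27 tests by edgeR's quasi-likelihood test with Benjamini-Hochberg adjustment over all genes, of which 12.3% were called between shRNA1 and shRNA2, 30% between shRNA1 and shRNA3 and 8.34% between shRNA2 and shRNA3. All groups had 3 libraries, so no library was tested for standing apart within its group.

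FGFR2 was higher with shRNA1 than with shRNA2 by log2 4.93 (adjusted p = 0.00426), and shRNA2 minus shRNA3 was -4.61 (adjusted p = 0.0259). Both values rest on 1 count in shRNA2, and the second was lost in 9 of the fits that left libraries out (adjusted p = 0.0531 to 0.128), with -3.34 without shRNA3 libraries 1 and 2. FGFR3 was lower with shRNA1 than with shRNA2 (log2 -0.77, adjusted p = 0.00873) and shRNA3 (log2 -1.08, adjusted p = 0.00254), the second being lost when only the compared groups were fitted (0.117). FGFR4 was lower with shRNA2 than with shRNA3 (log2 -0.86, adjusted p = 0.0349), a call lost with a replicate block (0.0509), with no filter (0.0538), with the compared groups alone (0.206) and in 11 of the fits that left libraries out (0.0546 to 0.297), with -0.36 without shRNA3 libraries 1 and 2.

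MET was higher with shRNA1 than with shRNA2 (log2 0.73, adjusted p = 0.0465), a call lost with a replicate block (0.0858), with no filter (0.0517) and in 11 of the fits that left a library out (0.0520 to 0.162). IGF1R was higher with shRNA1 than with shRNA2 (log2 0.51, adjusted p = 0.0266) and shRNA3 (log2 0.82, adjusted p = 0.00350). The first of these calls was lost with a replicate block (0.0532), with no filter (0.112) and when any 1 of the 6 libraries compared was left out (0.0517 to 0.124), and the second with the compared groups alone (0.117). INSR was lower with shRNA1 than with shRNA2 (log2 -0.80, adjusted p = 0.0175) and shRNA3 (log2 -0.58, adjusted p = 0.0350). The first was lost in 4 of the fits that left a library out (0.0602 to 0.0884), and the second with a replicate block (0.0568), with no filter (0.107), with the compared groups alone (0.200) and in 8 of the fits that left a library out (0.0546 to 0.126). DDR1 was lower with shRNA1 than with shRNA3 (log2 -1.39, adjusted p = 0.00918), a call lost with the compared groups alone (0.123) and without shRNA3 libraries 1 and 2, where the difference was -0.31 (0.0779).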

How the results depend on the processing

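FGFR1, FGFR2, FGFR3, FGFR4 and AXL kept their sign and an adjusted p under 0.05 against NC with each hairpin under every alternative run, and so did MET except for the call with shRNA1 and shRNA3 where a log2 change of at least 1 was required. Against NC, 751 of the members' values kept direction and side of the threshold, 9 became called, 21 lost their call and 2 reversed; between hairpins 497 kept theirs, 20 became called, 76 lost their call and 0 reversed; for the other named genes the numbers were 2212, 9, 7 and 1. The reversed values, all without shRNA3 libraries 1 and 2, were -0.16 for DDR1 with shRNA3, -0.19 for DDR1 over the mean of the hairpins and 0.71 for KITLG with shRNA3.

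The number of members called with shRNA1 against NC was 5 where a log2 change of at least 1 was required, and 7 to 9 with a library left out, where shRNA2 gave 6 to 7, shRNA3 6 to 7 and the mean 6 to 9. Between shRNA1 and shRNA2 it was 3 with a replicate block, 3 with no filter, 2 at an adjusted p under 0.01, 1 at a log2 change of at least 1, and 2 to 7 with a library left out. Between shRNA1 and shRNA3 it was 0 by edgeR with the compared groups alone (4 at an unadjusted p under 0.05), 2 at a log2 change of at least 1, and 3 to 6 with a library left out. Between shRNA2 and shRNA3 it was 1 with a replicate block, 1 with no filter, 4 with the DESeq2 Wald test, 1 at a log2 change of at least 1, and by edgeR 0 with the compared groups alone (2 at an unadjusted p under 0.05), 0 at an adjusted p under 0.01 (5 unadjusted) and 0 without shRNA3 libraries 1 and 2 (3 unadjusted). With a library left out it was 0 to 8, with 8 without shRNA3 library 3 and, where it was 0, 3 to 5 members at an unadjusted p under 0.05. The cause of these moves was not tested.

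The replicate numbers in the titles did not pair the libraries: deviations of same-numbered libraries correlated at -0.0107 on average (-0.0963 to 0.0968, 18 pairs) and those with different numbers at 0.00443 (36 pairs), and a library correlated best with its own number in 9 of 36 cases. With the replicate block 8, 6, 7 and 7 members were called with shRNA1, shRNA2, shRNA3 and the mean, the same numbers as without it. Scaling by DESeq2 size factors moved the median of all genes by under 0.1 (log2). Levels per length of AXL in NC were 78.3 with raw totals and 77.2 with the longest protein-coding transcript, and with that length DDR1 was 95.2, 138.6 and 249.6 CPM per kilobase in shRNA1, shRNA2 and shRNA3. Depth limits KIT, FGFR1 in NC and FGFR2 in shRNA2, each at 10 counts or fewer per library.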
